A study of Homo sapiens with 12 samples.

Results

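A-kinase anchoring proteins, which hold protein kinase A (PKA) at chosen places in the cell, were followed through their genes in RNA sequencing of HepG2 cells. The set was AKAP1, AKAP7, AKAP8, AKAP8L, AKAP9, AKAP10, AKAP11, AKAP12 and AKAP13. They were found by matching gene identifiers of the deposited count table to these symbols. All 9 were found among 62475 gene identifiers, and all 9 passed the filter on low counts.

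HepG2 is a human liver cancer cell line. The 12 libraries formed 4 groups of 3 biological replicates. They were HDAC1_S434A cells with H89, HDAC1_S434A cells without H89, cells with wild-type HDAC1 (WT_HDAC1) with H89, and WT_HDAC1 cells without H89. HDAC1 is a histone deacetylase, and S434A in the usual notation names an exchange of serine for alanine at that residue. H89 is a small-molecule PKA inhibitor that is known to inhibit other kinases too. The sources used here do not give how the mutant cells were made, whether they were 1 clone, or the dose, duration and vehicle of H89. Nothing further says how the replicates were separated, so p-values measure the spread between these libraries. In the main fit all 12 libraries share an estimate of spread for each gene. A comparison between groups therefore also carries the spread of groups outside it.

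PKA is kept inactive by regulatory subunits until cyclic AMP binds them and frees the catalytic subunits. Anchoring proteins bind the regulatory subunits through an amphipathic helix and also hold phosphodiesterases, phosphatases or other kinases, so that the signal is made and ended locally. In liver cells this pathway carries the glucagon signal, among others.

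Library totals ran from 17562754 to 37187794 counts. In every group 10 of 10 hepatocyte markers reached 1 CPM, and the blood markers PTPRC, CD3E and HBB and the fibroblast markers COL1A2, DCN and THY1 were at 0 in every library. Of 5 blood markers, 1 (CD14) averaged at least 1 CPM in every group, and the list's summed level was 23.5 to 35.8 CPM in S434A cells without H89 and 12.5 to 16.5 CPM over the libraries of the other three groups. Of 8 fibroblast markers, 1 (PDGFRB) did so, with sums of 19.5 to 22.3 CPM in S434A cells with H89, 25.6 to 39.8 CPM in S434A cells without H89, 21.3 to 22.6 CPM in WT cells with H89 and 14.9 to 15.8 CPM in WT cells without H89. The endothelial markers VWF and CDH5 were low, with summed levels of 2.22 to 8.65 CPM over all libraries, and KDR was at 0. The part of these markers in the results was not tested. CPM is the count divided by the TMM-scaled library size and given per 1000000 counts. The marker levels of this paragraph, ALB included, are instead per 1000000 counts of the raw library total. TMM factors were 0.832 to 0.845 in WT libraries without H89, 1 to 1.05 in S434A libraries without H89 and 1.05 to 1.1 with H89. Marker sums of the groups therefore stand in other ratios on the TMM scale. The biological coefficient of variation was 0.0555 in S434A cells with H89, 0.35 in S434A cells without H89, 0.0774 in WT cells with H89 and 0.0196 in WT cells without H89. Replicate 1 of S434A without H89 stood apart from its group, with an ALB level of 2930 CPM against 18200 and 24300 CPM in the other two. Each gene's log2 CPM relative to its mean over the 12 libraries was correlated across genes with GC content. Spearman rho was 0.81, 0.71 and 0.13 in S434A libraries without H89 and between -0.44 and -0.065 in all other libraries. With exon length, rho was 0.42 to 0.46 in the libraries with H89. It was -0.43 to -0.42 in WT and -0.19 to -0.079 in S434A libraries without H89. Over all genes, the log2 fold change for H89 in WT cells had a rho of 0.46 with exon length and -0.08 with GC content. For H89 in S434A cells rho was 0.37 and -0.66, and for S434A over WT without H89 it was 0.25 and 0.45. A fit on GC content and exon length took up 52.6% of the variance for H89 in S434A cells. That share was 38.7% between untreated genotypes, 24.9% for H89 in WT cells, 37.6% for the difference of H89 effects and 3.44% between genotypes with H89. Each result was therefore also computed with trends in GC content and exon length removed, which gives the values called trend-corrected here. Cell number of a type and RNA per cell cannot be told apart in bulk RNA.

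AKAP13 had the largest fold difference of the set between treated and untreated WT cells from TMM-scaled counts, while AKAP11 had the largest one trend-corrected. The product of AKAP13, also called AKAP-Lbc, is a PKA anchor and an exchange factor that activates the GTPase RHOA. In S434A cells with H89 the level of AKAP13 was 25.8, 25.4 and 26.9 CPM, against 11.6, 15.4 and 17.6 CPM without H89. WT cells with H89 had 28.2, 31.4 and 30.1 CPM, against 5.94, 6.07 and 5.70 CPM without H89. No library of any group overlapped with those of another group, and WT cells without H89 were lowest. The means were 26.0 ± 0.797 CPM in S434A with H89, 14.9 ± 3.0 CPM in S434A without H89, 29.9 ± 1.62 CPM in WT with H89 and 5.90 ± 0.185 CPM in WT without H89 (SD, n = 3 each).

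AKAP12, or gravin, is a scaffold at the plasma membrane that binds PKA, protein kinase C and adrenergic receptors. Its level was 78.2, 95.6 and 88.6 CPM in S434A cells with H89 and 17.7, 53.7 and 73.7 CPM in S434A cells without H89. In WT cells it was 75.1, 76.4 and 92.7 CPM with H89 and 29.4, 30.0 and 31.9 CPM without H89. The groups with H89 lay above their untreated groups in both genotypes without overlap. The untreated S434A libraries fell on both sides of the untreated WT libraries.

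AKAP11, also known as AKAP220, binds PKA together with GSK3B and protein phosphatase 1 on vesicles. It had 16.5, 17.8 and 16.6 CPM in S434A cells with H89 and 0.323, 4.71 and 6.86 CPM in S434A cells without H89. WT cells had 13.4, 15.1 and 18.5 CPM with H89 and 3.31, 2.90 and 3.48 CPM without it. The lowest library, replicate 1 of S434A without H89, held 6 counts of AKAP11. All libraries with H89 were above all libraries without it.

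AKAP9, a large scaffold of the Golgi and centrosome, was the lowest member per exon length in all 4 groups. Bowtie, the aligner in the submitters' processing notes, is not made to place reads across introns, so genes with many exons, such as AKAP9 with 54 merged exons and AKAP13 with 48, may be undercounted in every library, which limits ranks and shares between members. The level of AKAP9 was 10.1, 8.22 and 6.85 CPM in S434A cells with H89 and 0.215, 3.77 and 5.30 CPM in S434A cells without H89. In WT cells it was 7.32, 8.61 and 7.40 CPM with H89 and 4.75, 4.33 and 4.52 CPM without H89. Replicate 1 of S434A without H89 held only 4 counts of AKAP9. The libraries with H89 were again above those without it in both genotypes.

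AKAP10, a dual-specificity anchor with RGS domains found at mitochondria and endosomes, was at 24.5, 26.6 and 25.1 CPM in S434A cells with H89 and 8.39, 14.8 and 17.7 CPM in S434A cells without H89. WT cells had 25.3, 24.1 and 25.5 CPM with H89 and 12.7, 12.1 and 12.8 CPM without H89. The treated groups were alike in range and lay above both untreated groups.

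AKAP1, the anchor of the outer mitochondrial membrane, was the most abundant member per exon length. It was measured at 148, 148 and 156 CPM in S434A cells with H89 and at 152, 145 and 116 CPM in S434A cells without H89. In WT cells it was at 151, 152 and 148 CPM with H89 and at 105, 101 and 107 CPM without H89. The untreated WT group lay below all others, and the S434A groups overlapped each other.

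AKAP7, which tethers PKA to ion channels at the plasma membrane, had 7.41, 7.01 and 6.69 CPM in S434A cells with H89 and 2.26, 4.49 and 4.62 CPM in S434A cells without H89. The WT libraries had 5.35, 5.49 and 6.79 CPM with H89 and 4.69, 4.33 and 3.78 CPM without H89. The treated libraries exceeded the untreated ones in each genotype.

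The nuclear anchor AKAP8, known as AKAP95 and bound to chromatin, has a neighbour and homologue, AKAP8L, which is also nuclear. AKAP8 was at 28.8, 28.4 and 30.7 CPM in S434A cells with H89, 38.7, 32.9 and 29.0 CPM in S434A cells without H89, 28.5, 29.1 and 28.6 CPM in WT cells with H89 and 25.8, 26.1 and 26.7 CPM in WT cells without H89. AKAP8L was at 38.0, 40.0 and 36.0 CPM in S434A cells with H89, 61.1, 49.1 and 42.6 CPM in S434A cells without H89, 41.7, 41.3 and 42.1 CPM in WT cells with H89 and 38.2, 37.1 and 37.5 CPM in WT cells without H89. For AKAP8L the untreated S434A libraries were above those of every other group, while for AKAP8 they overlapped with the treated S434A libraries.

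**Figure D1:**
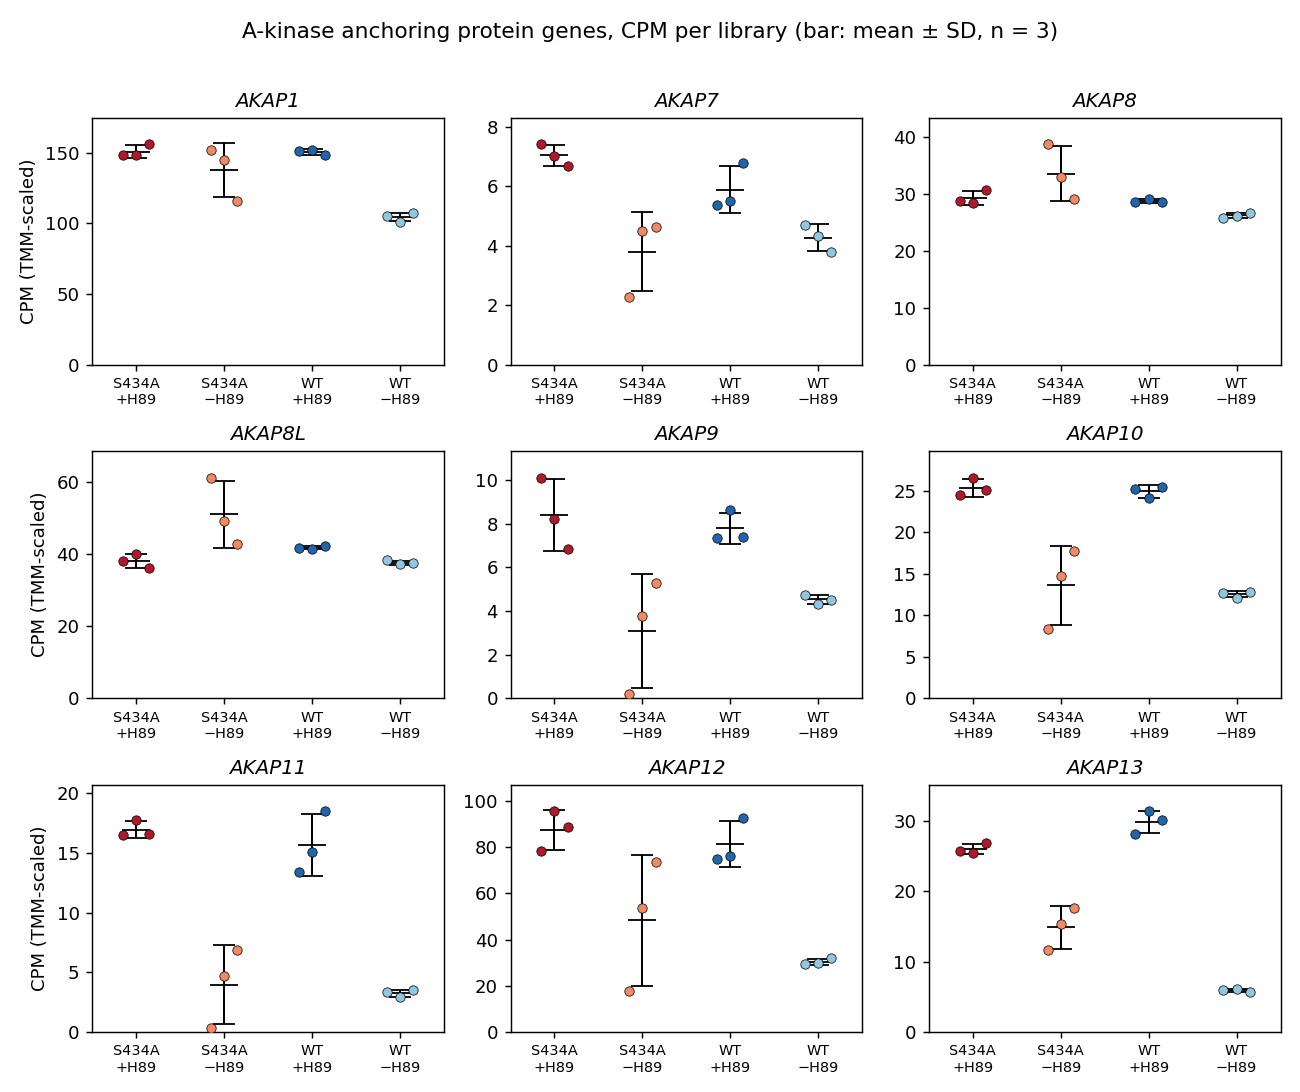
CPM (TMM-scaled, vertical axis from 0) of each of the 9 genes in every library, with 1 point per library and a bar for the mean ± SD of 3 libraries in each of the 4 groups. AKAP13 separates all 4 groups, with 29.9 ± 1.62 CPM in WT with H89 against 5.90 ± 0.185 CPM in WT without H89, and the libraries of S434A without H89 are spread most for AKAP9, AKAP11 and AKAP12.

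Levels were compared between genes only as CPM per kb of counted exon. On that scale AKAP1 was highest in all 4 groups, at 28.2 ± 0.892 in S434A cells with H89, 25.8 ± 3.62 in S434A cells without H89, 28.1 ± 0.426 in WT cells with H89 and 19.6 ± 0.537 in WT cells without H89 (SD, n = 3 each). AKAP9 was lowest, at 0.457 ± 0.0884 CPM per kb in S434A cells with H89, 0.169 ± 0.142 in S434A cells without H89, 0.424 ± 0.0395 in WT cells with H89 and 0.247 ± 0.0115 in WT cells without H89.

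The order between these ends differed with treatment. In both H89-treated groups AKAP12 was the second, followed by AKAP8L, AKAP8 and AKAP10, and AKAP8L and AKAP8 overlapped in S434A cells. In untreated WT cells the second was AKAP8L, then AKAP8, AKAP12, AKAP10 and AKAP7, without overlap between neighbours, and AKAP11 and AKAP13 overlapped below them. In untreated S434A cells neighbours overlapped from AKAP8L through AKAP8 and AKAP12 to AKAP10, and from AKAP7 through AKAP13 and AKAP11 to AKAP9. AKAP10 and AKAP7 did not overlap.

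As a share of the summed CPM per kb of the 9 genes, AKAP12 made up 14.6 to 17.1% in S434A cells with H89 and 3.71 to 16.2% in S434A cells without H89. In WT cells its share was 14 to 16.6% with H89 and 8.13 to 8.75% without H89. AKAP8L made up 11.1 to 12.4% in S434A cells with H89, 16.2 to 22.1% in S434A cells without H89, 13 to 13.4% in WT cells with H89 and 17.7 to 18.3% in WT cells without H89. AKAP8L held a smaller share, and AKAP12 a larger one, in every treated WT library than in every untreated WT library.

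**Figure D2:**
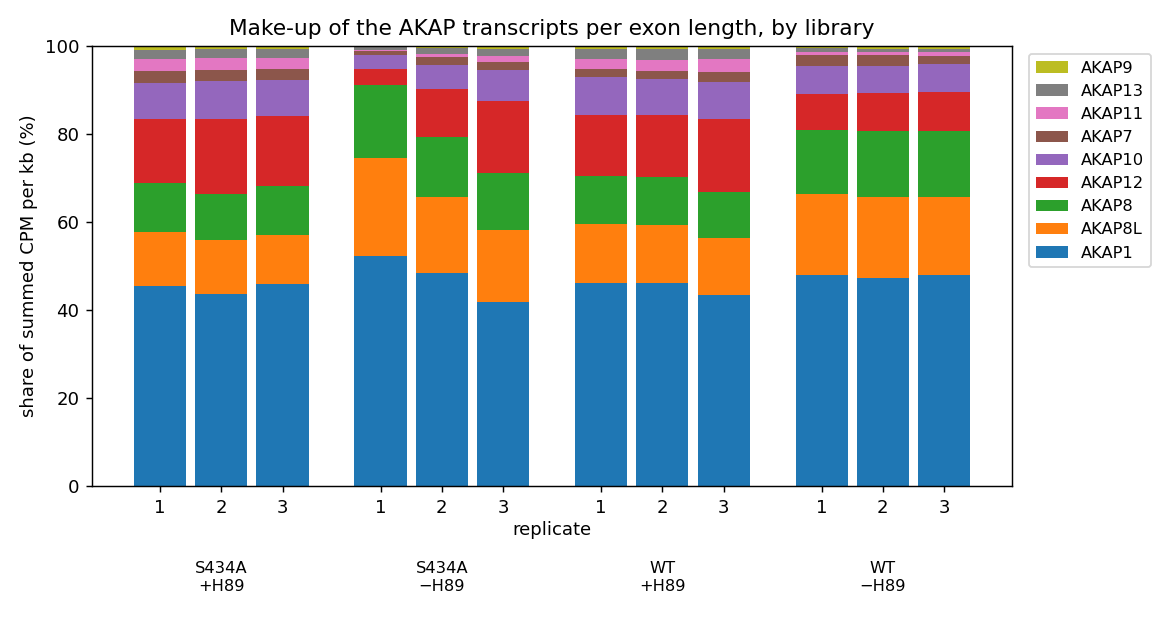
Share of each gene in the summed CPM per kb of the 9 genes (vertical axis, %), as 1 stacked bar per library in 4 groups of 3. AKAP1 takes 41.9 to 52.4% in the libraries of S434A without H89, and AKAP12 takes 14 to 16.6% in WT with H89 against 8.13 to 8.75% in WT without H89.

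The genes differ in size and base composition. In hg19 coordinates of the deposited table, AKAP13 lies at chr15:85923802-86292589 on the plus strand, with 20280 bases of counted exon in 48 merged exons and a GC content of 49.3% in its longest transcript. AKAP9 lies at chr7:91570176-91739987 on the plus strand, with 18353 exon bases in 54 merged exons and 38.2% GC. AKAP11, at chr13:42846288-42897397 on the plus strand, has 9915 exon bases in 13 merged exons and the lowest GC content of the set, 37.3%.

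AKAP12 is at chr6:151561102-151679694 on the plus strand, with 8775 exon bases and 46.3% GC. AKAP7, on the plus strand of the same chromosome at chr6:131456607-131604675, has 4593 exon bases and 38.6% GC. AKAP1 is at chr17:55162453-55198707 on the plus strand, with 5340 exon bases and 53.4% GC. AKAP10, at chr17:19807615-19881656 on the minus strand, has 4839 exon bases and 42.5% GC.

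AKAP8 (chr19:15464196-15490609, 4296 exon bases, 51.9% GC) and AKAP8L (chr19:15490861-15529952, 5079 exon bases, 62.1% GC) are adjacent on the minus strand. No exon of AKAP9, AKAP10, AKAP11 or AKAP12 overlaps with another gene's exons. The largest overlap is in AKAP8L, where the opposite-strand gene ENSG00000279716 covers 22.4% of exon bases and was itself assigned 9 to 23 counts. AKAP13-AS1, opposite AKAP13, had 0 counts in every library, and since the sources used here give no strand setting, reads of overlapping genes cannot be told apart.

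Promoter windows of 250 bases before a RefSeq start (GRCh38.p14, a build other than that of the counts) were matched for 8 of the 9 genes, with 15 windows in all; AKAP8L is named only. PKA is known to phosphorylate CREB, a factor that binds the cyclic AMP response element, so this element was searched on both strands. The full element TGACGTCA was in 0 of the 15 windows, against 1.65% of all 35116 windows in the table. The shorter core TGACG, which the full element contains, was in 6 of the 15, against 21.2% of all windows. These were the 3 windows of AKAP1, of which a pair overlap and share the same match, and 1 window each of AKAP7, AKAP8 and AKAP9. The GC box GGGCGG was in 11 of the 15 windows, against 42.6% of all. The windows of AKAP13 and AKAP11, the members with the largest log2 differences between treated and untreated WT cells, and of AKAP1 and AKAP8, which hold the core, are shown. Each reads 5′ to 3′ on the gene's strand and ends 1 base before the start, and capitals mark TGACG or its reverse complement CGTCA, which begins 43 bases before the start in AKAP1 and 50 bases before it in AKAP8.
AKAP13, chr15:85380353-85380602, plus strand: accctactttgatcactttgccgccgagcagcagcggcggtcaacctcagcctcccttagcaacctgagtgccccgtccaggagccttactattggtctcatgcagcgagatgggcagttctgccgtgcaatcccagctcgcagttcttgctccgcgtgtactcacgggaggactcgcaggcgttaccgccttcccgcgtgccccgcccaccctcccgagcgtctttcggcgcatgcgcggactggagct
AKAP11, chr13:42271902-42272151, plus strand: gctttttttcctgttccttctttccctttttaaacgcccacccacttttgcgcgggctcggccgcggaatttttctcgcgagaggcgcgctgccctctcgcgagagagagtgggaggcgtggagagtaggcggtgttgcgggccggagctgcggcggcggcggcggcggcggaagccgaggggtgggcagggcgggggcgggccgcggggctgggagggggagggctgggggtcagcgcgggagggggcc
AKAP1, chr17:57085506-57085755, plus strand: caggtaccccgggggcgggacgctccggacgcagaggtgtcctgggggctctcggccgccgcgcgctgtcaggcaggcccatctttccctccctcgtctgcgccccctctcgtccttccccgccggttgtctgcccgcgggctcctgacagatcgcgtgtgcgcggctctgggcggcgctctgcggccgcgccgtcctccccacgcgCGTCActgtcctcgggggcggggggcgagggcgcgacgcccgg
AKAP8, chr19:15379788-15380037, minus strand: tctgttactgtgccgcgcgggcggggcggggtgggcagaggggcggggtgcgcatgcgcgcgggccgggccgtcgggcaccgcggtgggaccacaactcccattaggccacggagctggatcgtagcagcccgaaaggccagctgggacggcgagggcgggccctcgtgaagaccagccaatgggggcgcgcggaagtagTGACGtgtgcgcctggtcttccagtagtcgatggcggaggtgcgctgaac
A match is a description of letters in these windows, and binding was not measured.

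The first comparison set WT cells with H89 against WT cells without it; PKA activity was not measured. A total of 5 members rose and 0 fell at an adjusted p under 0.05 (edgeR quasi-likelihood test with Benjamini-Hochberg adjustment over 14435 genes), against 38.8% of all genes higher and 30.9% lower. In log2 units, AKAP13 rose most, by 2.34 (SE 0.14, adjusted p = 7.96e-08), which is 5.06-fold. AKAP11 rose by 2.27 (SE 0.59, adjusted p = 0.00568) and AKAP12 by 1.42 (SE 0.37, adjusted p = 0.006). These 3 also passed the fold threshold of 2 stated in the study design, against 22.2% of all genes higher at that threshold. AKAP10 rose 1.99-fold and AKAP1 1.44-fold, with log2 fold changes of 0.99 (SE 0.20, adjusted p = 0.0012) and 0.52 (SE 0.09, adjusted p = 0.000308).

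AKAP9, AKAP7, AKAP8L and AKAP8 did not pass, with log2 differences of 0.78 (SE 0.55), 0.46 (SE 0.22), 0.15 (SE 0.11) and 0.13 (SE 0.10). The treated WT libraries were above the untreated ones for all 9 members, as for 47.6% of all genes. Weighting the groups by their own spread in limma-voom, all 9 passed, while 47.2% of all genes then passed higher. The standard errors of the main fit include the spread of the S434A libraries. Fitted on the WT groups alone, AKAP9 passed at 0.63 (SE 0.11, adjusted p = 9.78e-05) and AKAP7 at 0.31 (SE 0.13, adjusted p = 0.0363). The members' median log2 fold change was 0.78, and that of all genes was 0.20 with TMM and 0.05 with RLE factors. Relative to the TMM median, AKAP13 stood at 2.14, AKAP11 at 2.07, AKAP12 at 1.22, AKAP10 at 0.79, AKAP9 at 0.58, AKAP1 at 0.33, AKAP7 at 0.26, AKAP8L at -0.05 and AKAP8 at -0.06. For AKAP8 and AKAP8L the sign therefore depended on the scaling. It also turned when any of the 3 treated WT libraries was left out, with AKAP8 between -0.03 and -0.01 and AKAP8L between -0.01 and 0.00.

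Trend-corrected values were 1.18 for AKAP13, 1.5 for AKAP11, 0.85 for AKAP12, 0.83 for AKAP10 and 0.37 for AKAP1, and all 5 still passed. In that fit AKAP8 also passed at 0.25 and AKAP8L at -0.30, so 6 members were higher and 1 lower, against 38.4% and 34.9% of all genes. Ribosomal protein mRNAs made up 6.73 to 7.11% of counts in treated WT libraries and 18.3 to 18.8% in untreated ones, and mitochondrial mRNAs 4.91 to 6.26% in treated and 1.48 to 1.51% in untreated WT libraries. The part of these differences in the members' changes was not tested.

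In S434A cells, H89 gave 4 members higher and 1 lower at an adjusted p under 0.05, against 29.3% of all genes higher and 22.7% lower (edgeR). AKAP11 rose by 2.09 (SE 0.59, adjusted p = 0.0145), or 4.27-fold, and was the only member past 2-fold, against 15.2% of all genes. AKAP10 rose by 0.90 (SE 0.20, adjusted p = 0.00511), AKAP7 by 0.89 (SE 0.22, adjusted p = 0.00838) and AKAP13 by 0.81 (SE 0.13, adjusted p = 0.000891). AKAP8L fell by 0.42 (SE 0.11, adjusted p = 0.00998), which is 1.34-fold lower in treated cells. AKAP9 at 1.43 (SE 0.58), AKAP12 at 0.85 (SE 0.37), AKAP1 at 0.13 (SE 0.09) and AKAP8 at -0.20 (SE 0.10) did not pass.

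The libraries of 7 members did not overlap between treated and untreated S434A cells, with AKAP8L lower and the other six higher, against 33.1% of all genes higher and 23.2% lower. Fitted on the S434A groups alone, AKAP13 was the only member that passed, in a fit where 8.49% of all genes were higher and 11.4% lower. AKAP10, AKAP7, AKAP8L and AKAP11 then had adjusted p-values of 0.0606, 0.0669, 0.0823 and 0.103, and AKAP11 also missed the threshold with no filter on low counts, at 1.99 (adjusted p = 0.0694). With limma-voom AKAP9 passed at 2.28 (adjusted p = 0.0232) and AKAP12 at 1.08 (adjusted p = 0.0284). Trend-corrected, AKAP11 at 0.88, AKAP13 at 0.42, AKAP1 at 0.32 and AKAP10 at 0.26 passed, against 20.8% of all genes higher and 23.4% lower. The same 4 passed when replicate 1 of untreated S434A cells was also left out, at 0.68, 0.31, 0.32 and 0.22, against 21.9% of all genes higher. AKAP7, at -0.12, and AKAP8L, at -0.13, did not pass in the trend-corrected fit, and the sign of AKAP7 turned. Without replicate 3 of untreated S434A cells, 6 members passed as higher and 2 as lower, against 33.9% and 32.0% of all genes. Of these, 5 were past 2-fold, all higher, against 20.9% of all genes, with AKAP11 at 2.76, AKAP9 at 2.08 and AKAP12 at 1.29. Without replicate 1 of that group AKAP9 passed at 0.88 and AKAP12 at 0.46. AKAP8 passed at -0.29 without untreated S434A replicate 3, at -0.34 without untreated S434A replicate 2 and at -0.36 without treated S434A replicate 3, and at -0.29 with RLE factors or DESeq2 and -0.32 with upper-quartile factors.

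Between genotypes without H89, 4 members were higher in S434A cells than in WT cells and 0 were lower, against 29.0% of all genes higher and 29.3% lower (edgeR, adjusted p under 0.05). AKAP13 was higher by 1.33 (SE 0.14, adjusted p = 1.22e-05), or 2.52-fold. No other member was past 2-fold, against 11.6% of all genes. AKAP8L was higher by 0.44 (SE 0.11, adjusted p = 0.00553), AKAP1 by 0.40 (SE 0.09, adjusted p = 0.00247) and AKAP8 by 0.36 (SE 0.10, adjusted p = 0.00854). These 4 were also the members whose libraries did not overlap, as for 29.0% of all genes on the higher side. AKAP12 at 0.67 (SE 0.37), AKAP11 at 0.29 (SE 0.61), AKAP10 at 0.12 (SE 0.20), AKAP7 at -0.17 (SE 0.23) and AKAP9 at -0.55 (SE 0.58) did not pass.

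The untreated S434A libraries differed among themselves, and the members with more GC stood apart from those with less. Replicate 1 had the highest level of its group for AKAP8, AKAP1 and AKAP8L, the members with 51.9 to 62.1% GC, and the lowest for the other six, with 37.3 to 49.3% GC. Its CPM over the mean of untreated WT cells was 1.97-fold for AKAP13, 1.63-fold for AKAP8L, 1.48-fold for AKAP8 and 1.45-fold for AKAP1. It was 0.668-fold for AKAP10, 0.582-fold for AKAP12, 0.53-fold for AKAP7, 0.0999-fold for AKAP11 and 0.0475-fold for AKAP9. Among these the ratio did not follow GC content in order. AKAP7 has 38.6% GC and 4593 exon bases, and AKAP9 has 38.2% GC and 18353 exon bases. In replicate 3 the same ratios were 1.13 for AKAP8L, 1.11 for AKAP8 and AKAP1, 2.97 for AKAP13 and 2.42 for AKAP12. They were 2.12 for AKAP11, 1.41 for AKAP10, 1.17 for AKAP9 and 1.08 for AKAP7. AKAP13 was above untreated WT cells in each of the 3 libraries.

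**Figure D3:**
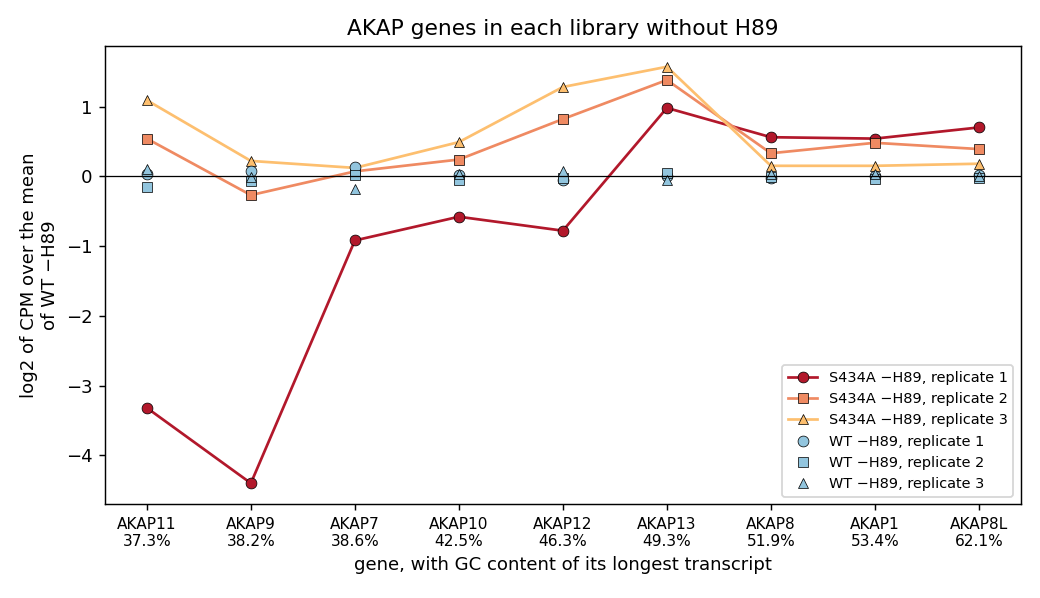
Log2 of each untreated library's CPM over the mean of WT without H89 (vertical axis) for the 9 genes, ordered from left to right by the GC content of the longest transcript, with lines joining the points of each S434A library. Replicate 1 of S434A lies at -4.40 for AKAP9 and -3.32 for AKAP11 and at 0.70 for AKAP8L, while AKAP13 is at 0.98, 1.38 and 1.57 in the 3 S434A libraries.

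Leaving out replicate 1 of untreated S434A cells, 7 members passed as higher, 2 of them past 2-fold, against 32.2% of all genes higher and 10.4% past 2-fold. AKAP12 was then at 1.07 (adjusted p = 6.24e-06), AKAP11 at 0.84 (adjusted p = 0.00137) and AKAP10 at 0.37 (adjusted p = 0.00445), with AKAP13 at 1.48. Trend-corrected values with all libraries were 0.61 for AKAP13, 0.69 for AKAP11, 0.56 for AKAP7, 0.55 for AKAP10 and 0.28 for AKAP8, all past the test, and 0.06 for AKAP1, which did not pass. AKAP8L was lower in that fit, at -0.28 (adjusted p = 0.00248), so its direction turned with the correction. That made 5 members higher and 1 lower, against 29.7% and 28.8% of all genes, and 0 past 2-fold. With trends removed and that library left out together, an alternative added after seeing the data, AKAP11 was at 0.89, AKAP12 at 0.79, AKAP13 at 0.72, AKAP10 at 0.58, AKAP7 at 0.46 and AKAP8 at 0.23. These passed as higher and AKAP8L passed as lower at -0.29, against 31.3% of all genes in each direction. With no filter on low counts AKAP8 was at 0.31 with an adjusted p of 0.0554. Without replicate 1 of untreated S434A cells AKAP7 was at 0.09 and AKAP9 at 0.00, and without replicate 3 AKAP10 was at -0.12 and AKAP11 at -0.37, none past the test.

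With H89 present, none of the 9 members differed between S434A and WT cells at an adjusted p under 0.05, as for 0.0% of all genes. Log2 differences ran from -0.20 (SE 0.13) for AKAP13 to 0.26 (SE 0.22) for AKAP7. The signs of AKAP1, AKAP8, AKAP9 and AKAP10 turned when some of the treated libraries were left out in turn, with values between -0.05 and 0.00. The S434A libraries lay below the WT libraries without overlap for AKAP13 and AKAP8L, as for 8.46% of all genes. Over all genes edgeR called 0, with 589 at an unadjusted p under 0.05, limma-voom called 0, limma-voom with group weights 3 and DESeq2 2.

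**Figure D4:**
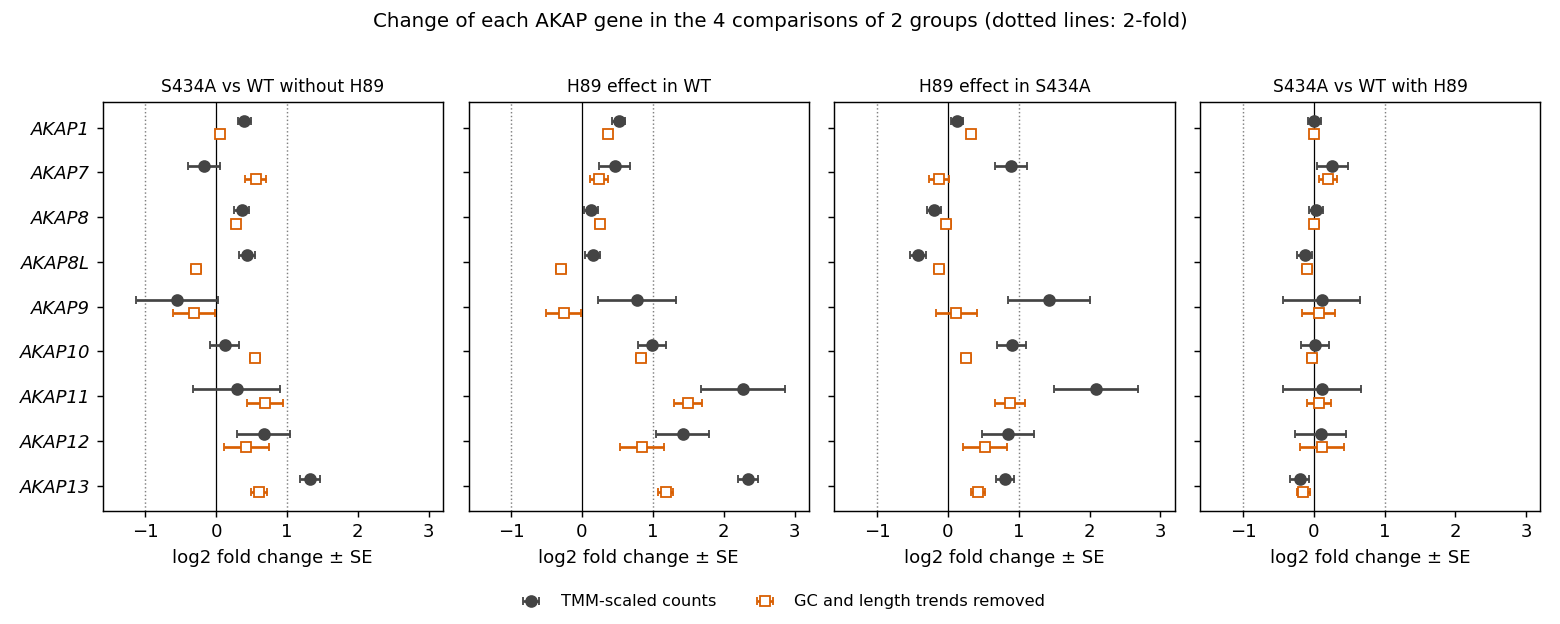
Log2 fold change ± SE (horizontal axis) of the 9 genes in the 4 comparisons of 2 groups, from TMM-scaled counts (filled circles) and with GC and length trends removed (open squares). AKAP13 stands at 1.33 and 0.61 for S434A over WT without H89 and at 2.34 and 1.18 for H89 in WT, and all 9 genes lie between -0.20 and 0.26 for S434A over WT with H89.

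The difference between the H89 effect in S434A cells and that in WT cells was tested as an interaction. It was past the threshold for 3 members, all lower in S434A cells, against 24.0% of all genes lower and 24.0% higher (edgeR). For AKAP13 the H89 effect was 0.81 in S434A cells and 2.34 in WT cells, a difference of -1.53 (SE 0.19, adjusted p = 8.88e-05) that was also past 2-fold, as for 12.4% of all genes on the lower side. For AKAP8L it was -0.42 in S434A cells and 0.15 in WT cells, a difference of -0.57 (SE 0.16, adjusted p = 0.0112). For AKAP1 it was 0.13 in S434A cells and 0.52 in WT cells, a difference of -0.39 (SE 0.12, adjusted p = 0.0228).

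Trend-corrected, the difference for AKAP13 was -0.76 (adjusted p = 0.000757), while AKAP1 was at -0.05 and AKAP8L at 0.18, neither past the test; AKAP10 at -0.57 and AKAP8 at -0.27 then passed. That again made 3 members lower and 0 higher, against 24.3% and 23.7% of all genes. AKAP1 lost the call without any 1 of 6 libraries, at -0.37 without untreated WT replicate 2, -0.36 without treated WT replicate 1 or 2, -0.35 without treated S434A replicate 1 or 2 and -0.33 without untreated S434A replicate 2, and also at -0.34 with no filter on low counts. Without replicate 1 of untreated S434A cells 6 members passed, among them AKAP12 at -0.96, AKAP11 at -0.72 and AKAP10 at -0.35, against 28.0% of all genes lower. With trends removed as well, 5 passed as lower, against 28.0% of all genes, with AKAP13 at -0.87, AKAP11 at -0.82, AKAP12 at -0.68, AKAP10 at -0.61 and AKAP8 at -0.21. AKAP8 passed at -0.42 without untreated S434A replicate 3, where AKAP10 was at 0.14 and AKAP11 at 0.49 without passing. AKAP13 was the only member whose direction and side of the adjusted p threshold held in all 5 comparisons under every alternative run, although its values were past 2-fold only in WT cells with H89 against WT cells without H89 once trends were corrected.

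The comparisons share libraries, since untreated WT cells enter the genotype comparison without H89 and the H89 effect in WT cells. Their values for a gene are therefore given side by side and were not correlated. By its definition, the interaction is the genotype difference with H89 minus that without H89. For AKAP13 these were -0.20 and 1.33, for AKAP8L -0.13 and 0.44, and for AKAP1 0.01 and 0.40. For these genes the interaction is thus largely the untreated genotype difference with its sign turned, and not a separate result.

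Other genes of PKA anchoring were read from lists. Of 25 other genes reported to anchor PKA, 17 were tested. H89 in WT cells gave 13 higher and 2 lower, where 38.8% of all genes were higher and 30.9% lower, and H89 in S434A cells 12 higher and 1 lower, where 29.3% were higher and 22.7% lower. Trend-corrected, these counts were 11 higher and 5 lower in WT cells, against 38.4% and 34.9% of all genes, and 10 higher and 2 lower in S434A cells, against 20.8% and 23.4%. Without H89, 5 were higher and 3 lower in S434A cells than in WT cells, against 29.0% and 29.3% of all genes. Trend-corrected, 3 were higher and 2 lower, against 29.7% and 28.8%, and with H89 0 passed the test. WASF1, an actin regulator, rose with H89 by 0.76 (SE 0.10) in S434A cells and by 1.89 (SE 0.11) in WT cells. EZR, with the smallest p of the list for H89 in S434A cells, fell in both genotypes. Its log2 fold change was -0.53 (SE 0.07) in S434A cells and -0.63 (SE 0.07) in WT cells, and -0.33 and -0.28 trend-corrected. RAB32, a small GTPase of mitochondria and lysosome-related organelles, differed by -1.02 on the log2 scale between untreated S434A and untreated WT cells, and by -0.62 trend-corrected. It was at 44.4 ± 3.44 CPM in untreated S434A cells against 90.1 ± 1.79 CPM in untreated WT cells (SD, n = 3 each). With H89, RAB32 changed by -1.13 (SE 0.08) in WT cells and by 0.02 (SE 0.08) in S434A cells, and by -0.25 and 0.43 trend-corrected. The list's median log2 fold change for H89 was 1.02 in S434A cells and 1.19 in WT cells, against 0.01 in S434A cells and 0.20 in WT cells over all genes; trend-corrected, it was 0.66 in S434A cells and 0.98 in WT cells.

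Of 30 genes for enzymes that anchors hold beside PKA, 26 were tested. H89 in S434A cells gave 14 higher and 4 lower, where 29.3% of all genes were higher and 22.7% lower, and H89 in WT cells 19 higher and 2 lower, where 38.8% were higher and 30.9% lower. Without H89, 13 were higher and 3 lower in S434A cells than in WT cells, against 29.0% and 29.3% of all genes, and with H89 0 passed the test. GSK3B, the kinase that AKAP11 binds, was at 40.8 ± 1.84 CPM in S434A cells with H89, 16.1 ± 3.67 CPM in S434A cells without H89, 42.8 ± 1.91 CPM in WT cells with H89 and 10.7 ± 0.929 CPM in WT cells without H89. Its log2 fold change with H89 was 1.34 (SE 0.14, adjusted p = 8.09e-05) in S434A cells and 2.00 (SE 0.15, adjusted p = 4.58e-07) in WT cells. PRKCA, a protein kinase C that binds gravin, rose with H89 in WT cells by 1.45 (SE 0.08) and was higher by 1.02 (SE 0.08) in untreated S434A than in untreated WT cells. ADCY9, an adenylyl cyclase, was higher by 1.60 (SE 0.14) in untreated S434A than in untreated WT cells. With GC and length trends removed, GSK3B was at 0.34 for H89 in S434A cells and 1.26 for H89 in WT cells, PRKCA at 0.72 for H89 in WT cells and 0.60 between untreated genotypes, and ADCY9 at 0.72 between untreated genotypes. That correction gave 9 enzyme genes higher and 6 lower with H89 in S434A cells, against 20.8% and 23.4% of all genes. With H89 in WT cells it gave 14 higher and 4 lower, against 38.4% and 34.9%. In untreated S434A against untreated WT cells it gave 12 higher and 5 lower, against 29.7% and 28.8%.

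Among the members, AKAP8 and AKAP8L had the closest patterns over the 12 libraries, with a root-mean-square difference of mean-centred log2 CPM of 0.102, and AKAP8L and AKAP11 were farthest apart, at 1.71. The nearest gene to each member was sought among other genes with a mean of at least 2 CPM and a symbol of capital letters and digits only. The nearest to AKAP13 was CBL, a ubiquitin ligase, at 0.0873. CBL averaged 33.5 CPM in S434A cells with H89, 18.8 CPM in S434A cells without H89, 37.8 CPM in WT cells with H89 and 6.96 CPM in WT cells without H89. The nearest genes to the other members were EPDR1 for AKAP1 (0.0485), KCTD6 for AKAP7 (0.108), LLGL2 for AKAP8 (0.0415), TSPAN9 for AKAP8L (0.0532) and NEDD1 for AKAP9 (0.194). LONRF1 was nearest to AKAP10 (0.055), AHCTF1 to AKAP11 (0.121) and IGF2BP3 to AKAP12 (0.136). These values describe likeness over the 12 libraries, and all genes compared share each library's depth. They were not trend-corrected, and genes that change little lie close by this measure. Trend-corrected, AKAP8 and AKAP8L differed in sign, at 0.28 and -0.28 between untreated genotypes and at 0.25 and -0.30 for H89 in WT cells. For H89 in S434A cells they were at -0.02 and -0.13, neither past the test.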

How the data were processed

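RNA was sequenced from 12 HepG2 libraries, in 4 groups of 3. Per the file headers, the authors counted read pairs over the exons of each gene with featureCounts 2.0.1 and hg19 annotation, and deposited whole counts. Bowtie 0.12.2, an aligner not made to place reads across introns, is named in the submitters' processing notes. The sources used here give no trimming, library kit or strandedness.

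Counts were taken as deposited, and 58633 of 62475 gene identifiers were matched to a symbol. A total of 0 rows lacked a gene identifier. Exon length is the deposited table's. All 12 libraries entered 1 edgeR 4.0.16 fit (R 4.3.3) with TMM factors, filterByExpr (minimum count 10) and the quasi-likelihood F test in its robust form, for 5 comparisons over 14435 genes, with Benjamini-Hochberg adjustment. The standard error is the log2 fold change divided by the square root of F. Calls use an adjusted p under 0.05, alone or with a fold over 2. The scripts were tested on simulated data.

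GC content of the longest GENCODE transcript and exon length (14280 genes, 98.9%) were fitted per library with splines of 5 degrees of freedom and used as offsets for the trend-corrected values. The alternatives run were DESeq2 1.42.0, limma 3.58.1 (voom, without and with group weights), RLE factors, upper-quartile factors, other filters, a replicate block, fits on the compared groups alone and each library left out. The named genes are the 9 members, up to 3 of each list with the smallest p per comparison, and the nearest gene to each member in pattern. The members, lists and tests were chosen with earlier results of these data known. Promoter sequences are RefSeq's (GRCh38.p14).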

Additional observations from a re-analysis of the deposited data

Results flagged for a closer look

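The H89 effect differed between S434A and WT cells, by the interaction test, for 3 members, all lower, against 24.0% of all genes lower and 24.0% higher. The difference on the log2 scale, S434A minus WT, was -1.53 for AKAP13, -0.57 for AKAP8L and -0.39 for AKAP1. Trend-corrected, AKAP13 passed at -0.76, while AKAP8L turned to 0.18 (adjusted p = 0.135) and AKAP1 was at -0.05 (adjusted p = 0.59), neither past the test (edgeR). AKAP1 also lost its call without any 1 of 6 libraries. The untreated S434A libraries that enter all 3 values had the widest spread between replicates. These 3 members were also higher in untreated S434A than in untreated WT cells, and none differed past the test with H89. The interaction is the difference between those genotype comparisons, so it largely restates the untreated one with its sign turned.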

How the results depend on the processing

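The members called in H89 against untreated WT cells numbered 9 with group weights in limma-voom, where 47.2% of all genes were higher and 35.1% lower. With edgeR they numbered 5, where 38.8% were higher and 30.9% lower. In S434A cells H89 gave 1 on the compared groups alone, where 8.49% of all genes were higher and 11.4% lower. The count past 2-fold was 3 with limma-voom with or without group weights. It was 0 with no filter, on the compared groups alone or with trends removed. The share of all genes past 2-fold is not given for those fits. Between genotypes without H89, trends removed together with replicate 1 of S434A left out was an alternative chosen after seeing the data. That alternative gave 7 members, against 31.3% of all genes in each direction. In that comparison 0 were past 2-fold with trends removed in any fit. In the difference of H89 effects that alternative gave 5, against 28.0% of all genes lower, and again 0 past 2-fold with trends removed.

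Directions turned as follows, all on the log2 scale. For S434A over WT without H89, AKAP7 was at 0.56 with trends removed, 0.59 with the replicate block too, 0.46 without S434A replicate 1 too and 0.04 on the compared groups; AKAP8L was at -0.28, -0.28 and -0.29 in the first 3, and AKAP11 at -0.52 in both limma fits. For H89 in WT, AKAP8 was at -0.02 (RLE, DESeq2, no filter) and -0.01 (compared groups). AKAP8L was at 0.00 (RLE, DESeq2, compared groups), -0.01 (no filter) and -0.30 with trends removed, and AKAP9 at -0.26 with trends removed. For H89 in S434A with trends removed, AKAP7 was at -0.12, -0.15 with the block and -0.03 without replicate 1, where AKAP8 was at 0.04 and AKAP9 at -0.07. For S434A over WT with H89, AKAP1 was at 0.00 (RLE, DESeq2, compared groups, 1 CPM filter) and AKAP10 at -0.02 with trends removed. In the difference of H89 effects with trends removed, AKAP7 was at -0.36, -0.40 and -0.27 and AKAP8L at 0.18, and AKAP11 was at 0.65 and 0.66 in the limma fits and 0.02 with the block. The cause was not tested.

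Same-numbered libraries did not deviate together (18 pairs, median r 0.025, 4 over 0.1). With the replicate block the counts called were 4, 5, 6, 0 and 3 in the order genotype without H89, H89 in WT, H89 in S434A, genotype with H89 and difference, and 1, 3, 1, 0 and 1 past 2-fold. With the block and trends removed, AKAP11 lost its trend-corrected call between genotypes without H89, at 0.66, and 5 members passed against 6 with trends removed alone. Shares of all genes are not given for the block fits, so these counts stand without a background.

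Leaving out each library in turn, the members called ranged from 4 to 7 between genotypes without H89, 5 to 5 for H89 in WT, 5 to 8 for H89 in S434A, 0 to 0 between genotypes with H89 and 2 to 6 for the difference. Past 2-fold the ranges were 1 to 2, 3 to 4, 1 to 5, 0 to 0 and 1 to 1. The share of all genes called also moved with the library left out. Without untreated S434A replicate 1, 32.2% were higher between genotypes without H89, against 29.0% with all libraries. Without untreated S434A replicate 3, 33.9% were higher and 32.0% lower for H89 in S434A, against 29.3% and 22.7%. For log2 fold changes whose sign turned, the ranges without a library were -0.35 to 0.09 for AKAP7, -1.20 to 0.00 for AKAP9, -0.12 to 0.37 for AKAP10 and -0.37 to 0.84 for AKAP11 between genotypes without H89. They were -0.03 to 0.14 for AKAP8 and -0.01 to 0.16 for AKAP8L for H89 in WT, and -0.02 to 0.21 for AKAP1 for H89 in S434A. Between genotypes with H89 they were -0.02 to 0.02 for AKAP1, -0.01 to 0.05 for AKAP8, -0.05 to 0.23 for AKAP9 and -0.01 to 0.05 for AKAP10. For the difference they were -0.35 to 0.14 for AKAP10 and -0.72 to 0.49 for AKAP11. Counts were lowest for AKAP9 and AKAP11, at 4 and 6 in replicate 1 of untreated S434A, which limits the precision of their values there; that library's total was not the lowest.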

Other observations

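Of 11 genes for PKA subunits and inhibitors, 7 were tested. H89 in S434A cells gave 3 higher and 2 lower, where 29.3% of all genes were higher and 22.7% lower, and H89 in WT cells 3 higher and 3 lower, where 38.8% were higher and 30.9% lower. Trend-corrected, these counts were 0 higher and 2 lower in S434A cells, against 20.8% and 23.4% of all genes. In WT cells they were 2 higher and 4 lower, against 38.4% and 34.9%. Without H89, 1 was higher and 3 lower in S434A cells than in WT cells, against 29.0% and 29.3% of all genes. Trend-corrected, 1 was higher and 2 lower, against 29.7% and 28.8%. With H89 0 passed the test (edgeR, adjusted p under 0.05). PKIG, an inhibitor of the catalytic subunits, was at 32.8 ± 1.15 CPM in S434A cells with H89, 41.5 ± 1.48 CPM in S434A cells without H89, 30.5 ± 0.647 CPM in WT cells with H89 and 77.8 ± 1.68 CPM in WT cells without H89 (SD, n = 3 each). Its log2 fold change was -0.34 for H89 in S434A cells (adjusted p = 0.00147), -1.35 for H89 in WT cells (adjusted p = 1.24e-08) and -0.91 for S434A over WT without H89 (adjusted p = 7.5e-07). Trend-corrected, the 3 values were 0.00, -0.85 and -0.79.

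The catalytic subunit gene PRKACA was at 82.1 ± 14.5 CPM in untreated S434A cells against 46.8 ± 2.43 CPM in untreated WT cells, a log2 fold change of 0.81 (adjusted p = 0.00015) that was 0.33 after trend correction. PRKACB, the other catalytic subunit gene measured, rose with H89 by 1.54 in S434A cells (adjusted p = 0.000662) and by 1.38 in WT cells (adjusted p = 0.000223). After trend correction these were 0.39, with an adjusted p of 0.149, and 0.83.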
